A study of Mus musculus with 3 samples.

Results

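Ephrins are ligands held in the cell membrane and Eph receptors are the tyrosine kinases that bind them, and 8 of these genes were followed through lung endothelial cells (ECs) of mice given melanoma cells. They were the ephrins Efnb2, Efnb1, Efna1 and Efna5 and the receptors Ephb4, Epha4, Epha2 and Epha7, found by symbol among the 32285 genes of the deposited matrices. The other 14 Eph and ephrin genes in the matrices served for comparison. Each value is a count of unique molecular identifiers (UMIs, 1 per captured transcript) summed over ECs of a library, given as CPM, the count divided by all UMIs of those ECs and scaled to a total of 1000000.

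The data came from 3 single-cell RNA-Seq libraries of lung ECs sorted as Pecam1+ Ptprc- from wild-type C57BL/6 mice (male C57BL/6JRj of 8 to 12 weeks in the study's methods), with a single library for each group. The label of the melanoma 6 h library also lists melanoma cells beside ECs. Control mice received PBS through the tail vein and their lungs were taken at 6 h. The melanoma 6 h and melanoma 30 h groups received 200000 B16F10 cells, a mouse melanoma line, by the same route and were taken at 6 h and 30 h, and no control was taken at 30 h. The labels name 2 mice per treatment and the study's methods 3 pooled mice, so a library is a pool of animals and has no replicate. Differences between groups are therefore given without a test, and their intervals cover counting error only.

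Ephrins of the A class are tied to the membrane by a lipid anchor and those of the B class cross it, and each meets its receptor where cells touch. The receptor then signals into its own cell, called forward signaling, and a B ephrin also signals back into the cell that carries it, called reverse signaling. In blood vessels ephrin-B2 is the textbook marker of arteries and its receptor EphB4 that of veins, and the pair keeps the vessel types apart during development.

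Barcodes were counted as ECs with 1000 to 5000 detected genes, under 20% mitochondrial UMIs and at least 2 UMIs of Pecam1 and Cdh5, which left 11231 control, 10583 melanoma 6 h and 9278 melanoma 30 h ECs with a median of 7782, 8033 and 8675.5 UMIs. Gates of at least 6 UMIs from at least 4 marker genes gave general capillary-like (gCap), aerocyte-like (aCap), artery-like, vein-like and lymphatic-like (LEC) ECs, and no ephrin or Eph gene was a marker. The gates held 7330, 6882 and 5695 gCaps, 1447, 1183 and 1395 aCaps, 285, 244 and 335 artery ECs, 685, 508 and 526 vein ECs and 72, 53 and 55 LECs in the control, 6 h and 30 h libraries, the order used for every row of 3 values here. Libraries shared 22 to 38 cell barcodes by pair. Dissociation stress genes (6596, 9132 and 4518 CPM), ribosomal RNA gene models (4831, 6050 and 20218 CPM), red cell genes (2937, 1920 and 760 CPM) and epithelial genes (777, 575 and 361 CPM) differed between the libraries, and their part in the group differences below was not tested. In artery ECs smooth muscle genes (45.8, 175 and 120 CPM) and fibroblast genes (24.5, 28.3 and 93.1 CPM) also differed, and their part was not tested either.

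The 250 bases before the RefSeq start site are shown for 4 of the genes that peaked in artery ECs, vein ECs or aCaps, on mouse build GRCm38.p6 (mm10) and 5′ to 3′ on the strand of the gene. Each window ends at the RefSeq start site, which for Epha2 lies a little upstream of the GENCODE start used for the gene positions below. Capitals mark the CCAAT box (CCAAT or ATTGG), the RBPJ motif of Notch signaling (TGGGAA), the TATA box (TATAAA or TTTATA) and the nuclear receptor half-site (AGGTCA or TGACCT).
Efnb2, chr8:8661243-8661492, minus strand: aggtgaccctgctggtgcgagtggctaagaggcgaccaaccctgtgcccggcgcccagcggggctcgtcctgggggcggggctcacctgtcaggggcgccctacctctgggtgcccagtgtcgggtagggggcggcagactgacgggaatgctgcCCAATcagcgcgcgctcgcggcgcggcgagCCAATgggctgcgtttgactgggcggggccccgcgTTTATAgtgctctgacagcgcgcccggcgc
Epha4, chr1:77515089-77515338, minus strand: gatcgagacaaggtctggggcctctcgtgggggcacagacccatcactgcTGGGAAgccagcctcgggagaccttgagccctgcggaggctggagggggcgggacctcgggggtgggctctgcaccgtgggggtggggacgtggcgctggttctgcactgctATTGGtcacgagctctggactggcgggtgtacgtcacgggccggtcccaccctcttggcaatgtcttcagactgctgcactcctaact
Ephb4, chr5:137349859-137350108, plus strand: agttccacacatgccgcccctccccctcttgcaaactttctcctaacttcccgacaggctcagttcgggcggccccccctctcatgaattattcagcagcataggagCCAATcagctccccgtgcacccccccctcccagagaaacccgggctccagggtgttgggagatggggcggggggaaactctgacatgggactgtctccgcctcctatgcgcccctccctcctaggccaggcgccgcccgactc
Epha2, chr4:141300971-141301220, plus strand: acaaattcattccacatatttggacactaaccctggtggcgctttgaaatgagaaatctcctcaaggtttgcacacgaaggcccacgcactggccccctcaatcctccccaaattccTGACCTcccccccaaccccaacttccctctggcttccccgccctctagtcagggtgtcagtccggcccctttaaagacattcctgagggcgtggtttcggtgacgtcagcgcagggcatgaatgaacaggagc
The Efnb2 window held CCAAT with its first base at -95 and at -65 and TTTATA at -30 from the start site. It was the only window of the 8 genes with a TATA box on either strand, and the match to TATAAA lies on the strand opposite to the gene. The motif was found on either strand in 12.4% of all 32851 mouse promoters of this length. The Epha4 window held TGGGAA at -200 and ATTGG at -88, the Ephb4 window CCAAT at -143 and the Epha2 window TGACCT at -133. Of all promoters 33.8% held a CCAAT box, 21.6% the RBPJ motif and 14.0% the half-site, on either strand and with overlaps allowed. Among the 8 genes the CCAAT box was found for 5, the RBPJ motif for 3 (Efnb1, Epha4 and Epha7) and the half-site for 1 (Epha2). The SOX motif (ACAAT or ATTGT) was in 27.7% of promoters and in none of the 8 genes' windows. G and C bases made up 72%, 66%, 64% and 55.6% of the windows in the order printed, against a median of 52.4% over all promoters, and the windows held 27, 14, 12 and 9 CpG pairs against a median of 6. A motif match describes these letters and no binding was measured.

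To find which vessel type carried which ligand and receptor, the UMI sums of the 5 EC types in the 3 libraries were compared with edgeR's quasi-likelihood test over 13189 genes, with the library as a block. Of the 8 genes 7 were abundant enough for the test, Epha7 not, and Efna5 was so through LECs and artery ECs, where it is high, so it is left out of the counts here and 6 genes remain. In artery against vein ECs 3 were higher (Efnb2, Epha4 and Efna1) and 3 lower (Ephb4, Efnb1 and Epha2), where 11.9% of all tested genes were higher and 14.3% lower. In artery ECs against gCaps 3 were higher (Efnb2, Epha4 and Efna1) and 2 lower (Ephb4 and Efnb1), against 9.69% and 8.19% of all genes. In vein ECs against gCaps 4 differed (Ephb4 above, Efnb2, Epha4 and Efna1 below), against 27.4% of all genes in either direction. In aCaps against gCaps 1 was higher (Epha2) and 4 were lower, against 26.3% of all genes in each direction. In LECs against gCaps 0 were higher and 3 lower (Efnb2, Epha4 and Efnb1), against 18.9% and 20.4%. The p-values rest on how far differences between EC types varied over the 3 libraries, after the block took out each library's own level. That spread is estimated over all 15 sums, and the libraries also differ in treatment. Each standard error (SE) given with a fold is the absolute log2 fold change divided by the square root of the test's F value.

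**Figure D1:**
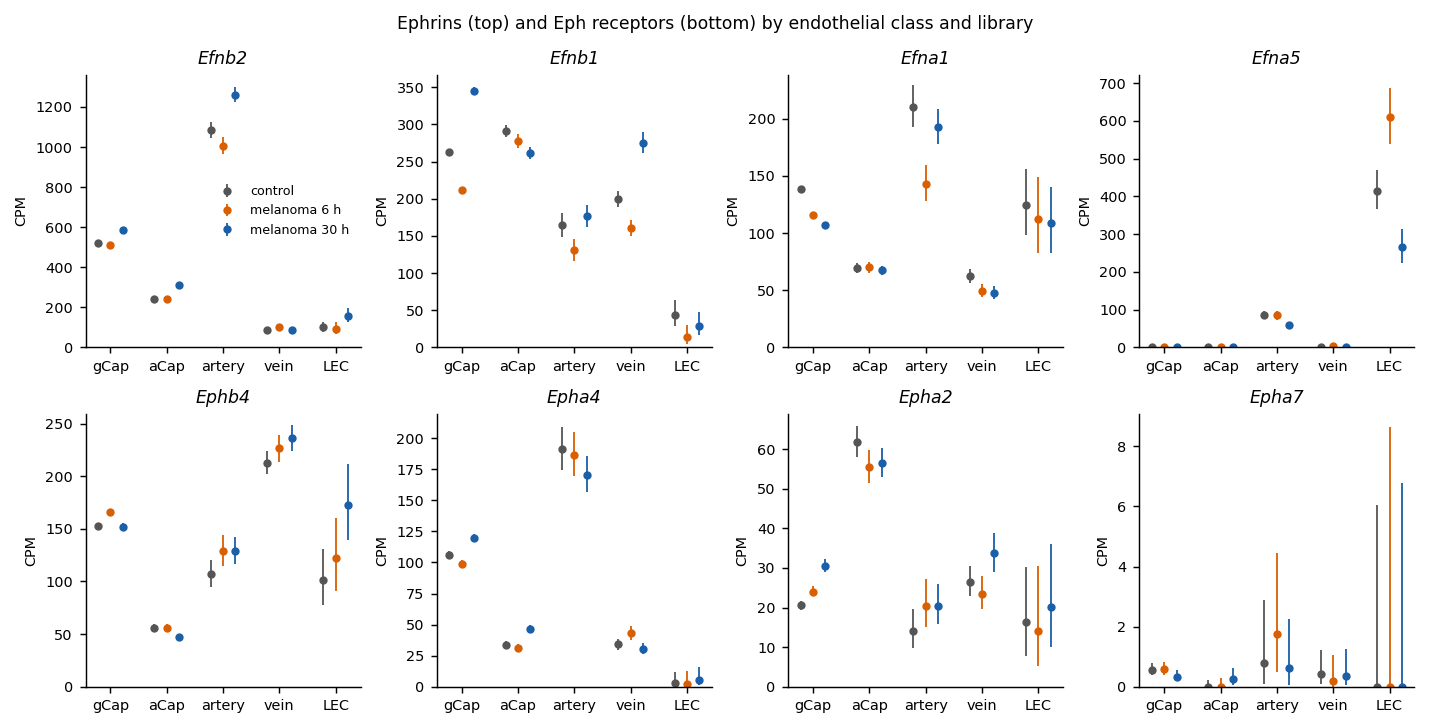
CPM of each gene (vertical axis, from 0) in the 5 EC types (horizontal axis) of the control, melanoma 6 h and melanoma 30 h libraries; points are UMI sums and bars exact Poisson 95% intervals. Efnb2 sits highest in the artery gate in every library (1006 to 1261 CPM), Ephb4 in the vein gate (213 to 236 CPM), Epha2 in aCaps (55.5 to 61.9 CPM) and Efna5 in LECs (267 to 609 CPM).

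Efnb2 (chr8:8617434-8661242) encodes ephrin-B2, the arterial B ligand. Its level was 1084, 1006 and 1261 CPM in artery ECs, 520, 509 and 587 CPM in gCaps, 240, 243 and 310 CPM in aCaps, 100, 93.8 and 158 CPM in LECs and 87.5, 102 and 89.1 CPM in vein ECs. The 3 libraries of a type did not overlap with those of the next type except between LECs and vein ECs. Artery exceeded vein ECs 11.3-fold (SE 0.10 on the log2 scale, edgeR adjusted p = 3.83e-14) and gCaps by 1.04 on the log2 scale (SE 0.09, adjusted p = 1.16e-07). Relative to gCaps, Efnb2 was lower in vein ECs (-2.46), LECs (-2.27) and aCaps (adjusted p = 3.83e-08). The ratio of CPM in artery to vein ECs was 12.4 in the control library (95% counting interval 11.3 to 13.5), 9.87 in the 6 h library (8.99 to 10.9) and 14.2 in the 30 h library (12.9 to 15.6). 3 short gene models overlap Efnb2 on its strand (E230020D15Rik, Gm45074 and Gm45073), so reads could be split between them.

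Efnb1 (chrX:99136130-99148991) encodes ephrin-B1, the other B ligand above 5 CPM in these ECs. It had no arterial peak. Its level was 291, 278 and 262 CPM in aCaps, 263, 212 and 345 CPM in gCaps, 200, 161 and 275 CPM in vein ECs and 165, 131 and 176 CPM in artery ECs, and these neighbours overlapped between libraries. LECs lay apart below them with 44.3, 14.1 and 29.4 CPM. Empty droplets, which show the free RNA, held 214, 174 and 216 CPM of Efnb1. LECs were 3.22 lower than gCaps on the log2 scale (SE 0.24, adjusted p = 3.32e-09). Artery ECs were 0.50 lower than vein ECs (SE 0.14, adjusted p = 0.0107) and 0.80 lower than gCaps (SE 0.13, adjusted p = 0.000223), and these calls were lost without the library block (adjusted p = 0.204 and 0.0527).

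Efna1 (chr3:89271733-89281142) encodes ephrin-A1, an A ligand that EphA2 binds. It was highest in artery ECs at 210, 143 and 193 CPM, followed by gCaps (138, 116 and 107 CPM), LECs (125, 113 and 108 CPM), aCaps (69.5, 69.9 and 67.4 CPM) and vein ECs (62.1, 49.5 and 47.9 CPM). Only gCaps and LECs overlapped as neighbours. Artery exceeded vein ECs by 1.70 (SE 0.10, adjusted p = 7.22e-10) and gCaps by 0.59 (SE 0.09, adjusted p = 0.000136). The level in aCaps and vein ECs was 0.77 and 1.11 lower than in gCaps.

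Efna5 (chr17:62604184-62881317) encodes ephrin-A5 and was found mainly in LECs and artery ECs. LECs held 415, 609 and 267 CPM and artery ECs 85.5, 84.9 and 59.6 CPM. Vein ECs held 0.981, 2.64 and 0.701 CPM from 7, 14 and 4 UMIs, and gCaps 0.861, 0.565 and 0.0994 CPM from 51, 33 and 5 UMIs. Empty droplets held 3.42, 7.2 and 6.07 CPM, above these gCap and vein values, so the size of the fold against gCaps or vein ECs is not given. Efna5 was found in 63.9%, 83.0% and 61.8% of LECs but in 13.0%, 18.4% and 15.8% of artery ECs. In gCaps, where its level lay below the empty droplets, 0.450%, 0.291% and 0.0702% of cells held it. Cells were not matched for depth in these shares. The tenth of artery ECs with most Efna5 carried 96.2%, 89.2% and 87.5% of its UMIs. Artery ECs with at least 4 UMIs of Vwf, the von Willebrand factor of larger vessels, held 137, 144 and 78.8 CPM of Efna5, and artery ECs without a Vwf UMI 6.55, 6.51 and 1.78 CPM from 3, 3 and 1 UMIs, a split chosen after the values were seen.

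Ephb4 (chr5:137350109-137378669) encodes the receptor of ephrin-B2. Its order ran opposite to that of Efnb2 at the ends of the bed, with 213, 226 and 236 CPM in vein ECs and 107, 129 and 129 CPM in artery ECs. The gCaps lay between them (152, 166 and 152 CPM), LECs held 102, 122 and 173 CPM, below artery ECs in the control and 6 h libraries and above them at 30 h, and aCaps held the least at 55.6, 55.6 and 46.9 CPM. Artery ECs were 0.97 lower than vein ECs on the log2 scale (SE 0.10, adjusted p = 1.04e-06), vein ECs 0.59 higher than gCaps (SE 0.09, adjusted p = 6.65e-05) and aCaps 1.54 lower than gCaps (SE 0.10, adjusted p = 1.80e-10). The lower level in artery ECs than in gCaps (-0.38, adjusted p = 0.0128) was lost without the library block (adjusted p = 0.169), without the control library (0.135) and without the 6 h library (0.105). LECs differed from gCaps by -0.32 on the log2 scale (SE 0.14, adjusted p = 0.0751), and by -0.61 without the 30 h library (adjusted p = 0.00172). Ephb4 overlaps Zan on the opposite strand.

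The balance of ligand to receptor followed from these levels. The data held 10.1, 7.80 and 9.79 Efnb2 UMIs per Ephb4 UMI in artery ECs, 4.33, 4.36 and 6.60 in aCaps, 3.41, 3.08 and 3.86 in gCaps, 0.984, 0.769 and 0.915 in LECs and 0.411, 0.450 and 0.377 in vein ECs. The ratio of UMIs of 2 genes depends on how well each is captured, and only its order across EC types is read here.

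Epha4 (chr1:77367185-77515088) encodes a receptor that binds A ephrins and also ephrin-B2. Like Efnb2 it peaked in artery ECs (191, 186 and 171 CPM), followed by gCaps (106, 99.1 and 120 CPM), and it was lower in aCaps (33.5, 31.4 and 46.4 CPM) and vein ECs (34.1, 43.1 and 30.7 CPM), which overlapped. LECs held 2, 1 and 3 UMIs (3.28, 2.34 and 5.51 CPM). Artery exceeded vein ECs by 2.26 (SE 0.14, adjusted p = 6.42e-10) and gCaps by 0.74 (SE 0.12, adjusted p = 0.000140). The microRNA gene Mir6352 lies within Epha4 on the same strand. Vein ECs and aCaps were each 1.52 lower than gCaps, and LECs 4.91 lower (SE 0.42, adjusted p = 1.87e-08). The LEC fold rests on the few UMIs given above, so its SE may understate the counting error.

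Epha2 (chr4:141301240-141329384), the receptor for ephrin-A1, peaked in aCaps, whose counterpart in the lung is the flat capillary cell of gas exchange. It reached 61.9, 55.5 and 56.6 CPM in aCaps, 26.5, 23.5 and 33.7 CPM in vein ECs, 20.6, 24.0 and 30.6 CPM in gCaps, 14.1, 20.5 and 20.5 CPM in artery ECs and 16.4, 14.1 and 20.2 CPM in LECs from 10, 6 and 11 UMIs. aCaps exceeded gCaps by 1.26 (SE 0.10, adjusted p = 8.18e-09). Artery ECs were 0.69 lower than vein ECs (SE 0.18, adjusted p = 0.00626) and differed from gCaps by -0.46 (adjusted p = 0.0583), which passed the threshold with stricter gates (-0.69, adjusted p = 0.0135), without doublets (-0.51, 0.0394) and with no filter on low counts (-0.56, 0.00111). Thus aCaps combined the highest Epha2 with the lowest Ephb4 of the 5 types.

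Epha7 (chr4:28813131-28967499), a receptor of A ephrins, was near the limit of detection in ECs, with 57, 53 and 27 UMIs (0.627, 0.607 and 0.331 CPM). The gCaps held 33, 34 and 17 of these UMIs, and no UMI was found in LECs, where 3 UMIs would have been 4.92, 7.03 and 5.51 CPM. Barcodes in the same limits that failed the EC gate held 24.5, 21.4 and 35.9 CPM. Epha7 overlaps Gm11915 on the opposite strand.

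**Figure D2:**
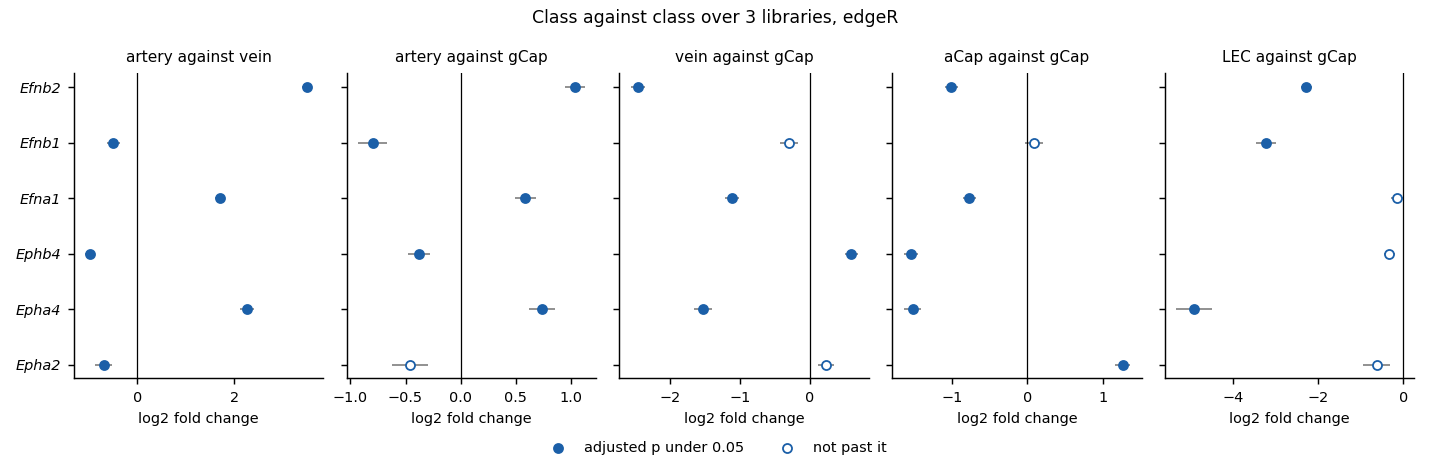
edgeR log2 fold change (horizontal axis) of the 6 genes counted in 5 contrasts between EC types over 3 libraries. Bars are SEs derived from the F value as described above, filled points have an adjusted p under 0.05 and each panel has its own scale. Efnb2, Efna1 and Epha4 lie right of 0 and Ephb4, Efnb1 and Epha2 left of it in artery against vein ECs, and Epha2 alone lies right of 0 with a filled point in aCaps against gCaps.

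To see whether the levels also differed within gCaps, the largest EC type, gCaps with at least 2 UMIs of artery markers and no vein marker, with the reverse, or with neither were read apart, and the rest left out. The vein-marker gCaps held 348, 381 and 356 CPM of Efnb2, those with neither marker 441, 426 and 493 CPM and the artery-marker gCaps 724, 649 and 829 CPM. Efnb2 thus formed the same order in the 3 libraries, and all of these values lay between those of vein and artery ECs. For Epha4 the artery-marker gCaps held 157, 123 and 173 CPM, against 94.2, 80.7 and 101 CPM with neither marker and 79.8, 83.4 and 82.0 CPM with vein markers. Ephb4 was 153, 149 and 156 CPM with artery markers, 140, 161 and 149 CPM with neither and 166, 171 and 163 CPM with vein markers, so the middle group was the lowest in the control and 30 h libraries. Efna1 was 147, 108 and 120 CPM with artery markers and 126, 112 and 86.7 CPM with vein markers, without a shared order. The splits compare cells of 1 library at a time and were given no test. A rule that asks for marker UMIs favours deeper cells and a rule that asks for none favours shallower ones. The groups were not matched for depth, and the part of depth was not tested. They use the same markers as the artery and vein gates. Artery and vein ECs also held gCap markers (3268 and 3651 CPM in the control library, against 4648 CPM in gCaps). Artery or vein ECs with too few marker UMIs for their own gate could thus count as gCaps here, and their part in these orders was not tested.

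**Figure D3:**
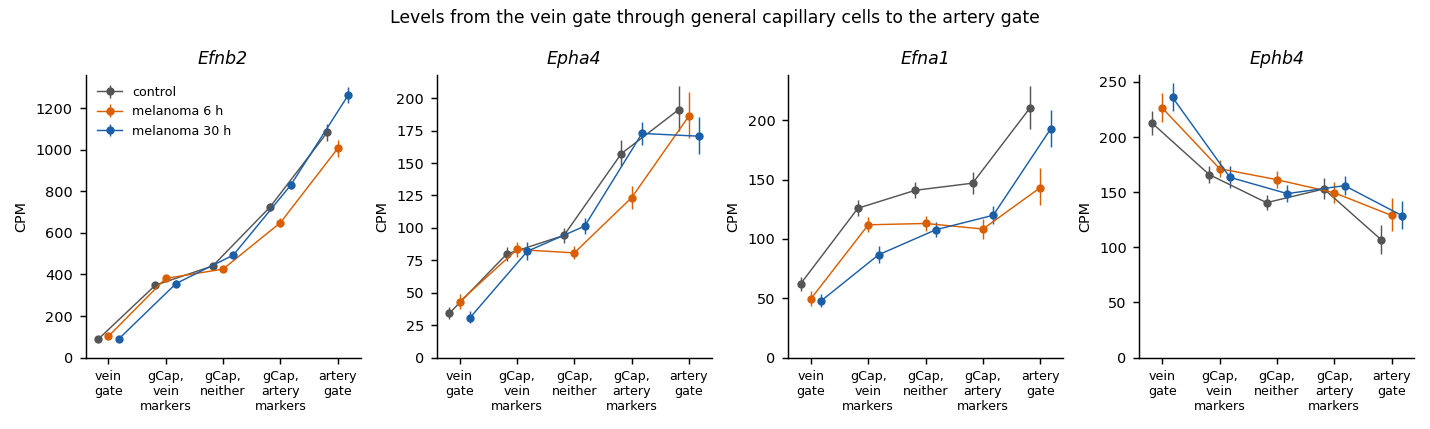
CPM (vertical axis, from 0) of Efnb2, Epha4, Efna1 and Ephb4 in vein ECs, in gCaps with vein markers, with neither and with artery markers, and in artery ECs (horizontal axis), by library; bars are exact Poisson 95% intervals and lines join the points of a library. Efnb2 climbs from 87.5 to 102 CPM in vein ECs to 1006 to 1261 CPM in artery ECs, and Ephb4 goes from 213 to 236 CPM in vein ECs to 107 to 129 CPM in artery ECs without a steady order within gCaps.

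The gCaps were also split in other ways, again by detected UMIs and without matching for depth. The gCaps with at least 2 UMIs of Ntrk2, the receptor of BDNF, held 174, 132 and 190 CPM of Epha4 against 100, 95.9 and 102 CPM in gCaps without it. Efnb2 was 648, 590 and 665 CPM against 508, 501 and 571 CPM in the same split, and Efna1 was 104, 90.6 and 80.0 CPM against 142, 119 and 114 CPM. In gCaps with UMIs of Pim3, Bcl3 and Tmem252, which the study lists among the markers of its reactive capillary ECs, Efnb2 was 365, 414 and 391 CPM from 275, 827 and 259 cells, against 528, 525 and 598 CPM in the other gCaps. Efna1 was likewise 113, 102 and 92.2 CPM against 140, 118 and 108 CPM. Ephb4 was 173, 179 and 154 CPM in these cells and 151, 163 and 152 CPM in the others. In gCaps rich in interferon genes Efnb2 was 424, 443 and 544 CPM against 530, 517 and 590 CPM.

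The share of cells with a transcript was compared after each cell was thinned to 2000 UMIs, which left out 35, 18 and 19 gCaps with fewer. Efnb2 was then seen in 82.9%, 83.5% and 87.1% of artery ECs, 53.8%, 54.7% and 58.0% of gCaps and 13.3%, 12.6% and 14.1% of vein ECs. Immune barcodes, which should lack Efnb2, showed it in 1 of 15, 2 of 40 and 0 of 33 (exact 95% intervals 0.169% to 31.9%, 0.611% to 16.9% and up to 10.6%). Free RNA, estimated from epithelial genes, made up 2.16%, 1.96% and 1.60% of the vein sums. After its subtraction vein ECs kept 82.9, 97.4 and 85.0 CPM of Efnb2. Without thinning the shares were 98.2%, 97.5% and 98.8% of artery ECs, 82.6%, 85.0% and 87.4% of gCaps and 39.6%, 43.7% and 46.0% of vein ECs, with a median depth of 7746.5 to 8621 UMIs in gCaps and 5876.5 to 8194 in immune barcodes. Ephb4 was seen in 36.3%, 37.7% and 35.4% of thinned vein ECs, 25.2%, 27.9% and 26.0% of gCaps and 14.6%, 21.4% and 22.2% of artery ECs. It was seen in 0 of the 15, 40 and 33 thinned immune barcodes. These are few, and for 0 of 33 the exact 95% interval reaches 10.6%, so a background share above 0 remains possible.

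Ligand and receptor were also read in the same cell. In thinned gCaps Efnb2 and Ephb4 were found together in 13.4%, 15.2% and 15.2% of cells, and the product of the single shares was 13.6%, 15.3% and 15.1%. Efnb2 and Epha4 were found together in 10.8%, 10.0% and 12.2% of cells with a product of 9.36%, 8.85% and 10.7%, which lay below the exact 95% interval of the joint share in each library. Efna1 and Epha2 were found together in 0.891%, 0.947% and 0.916% of cells with a product of 0.893%, 0.905% and 0.968%. Cells of a library are not replicates, and these shares are a description.

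To ask how the genes differed after melanoma injection, CPM was compared between libraries for all ECs and for each EC type. A gene counted as past the fold when its CPM ratio exceeded 1.5-fold in either direction and the exact 95% counting interval left out equality. At 6 h, 0 of the 8 genes were past the fold in all ECs, where 8.61% of 17295 genes were, and 0 of 8 in gCaps, where 7.79% were. At 30 h against control, 1 of 8 was past it in all ECs (Epha7, background 17.5%) and 1 of 8 in gCaps (Efna5, background 16.1%). At 30 h against 6 h, 1 of 8 was past it in all ECs (Epha7, background 18.4%), 2 of 8 in gCaps (Efnb1 and Efna5, background 16.8%) and 1 of 6 in vein ECs (Efnb1, where 12.2% of genes were past it in either direction and 5.85% upward). In artery ECs 0 of 7 and in aCaps 0 of 6 were past it in any of the 3 comparisons, and in vein ECs 0 of 6 at 6 h and at 30 h against control, where 5.78% (aCaps, 6 h) to 17.98% (aCaps, 30 h against 6 h) of all genes were. The median log2 ratio of the 8 genes over all ECs was -0.02 at 6 h, 0.05 at 30 h and 0.04 between the times, beside -0.02, -0.05 and -0.04 over all genes. In sums over cells, fewer cells of a kind and less RNA per cell cannot be told apart.

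Efnb1 had the largest gap between 6 h and 30 h in gCaps among the genes above 5 CPM there. Over all ECs it was 252, 206 and 303 CPM, which was -0.29 on the log2 scale at 6 h (interval -0.32 to -0.26) and 0.26 at 30 h (0.24 to 0.29) against control. The 30 h library exceeded the 6 h library by 0.55 (0.52 to 0.58) in all ECs, by 0.70 (0.67 to 0.74) in gCaps and by 0.78 (0.65 to 0.90) in vein ECs. In artery ECs the difference was 0.43 (0.23 to 0.64). In aCaps Efnb1 was instead lower than control at both times, by -0.07 and -0.15. The dissociation stress genes were lowest in the 30 h library and highest at 6 h, opposite to Efnb1, and their part in this difference was not tested.

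Efnb2 was the same in the control and 6 h libraries to within counting error over all ECs (446 and 447 CPM, log2 ratio 0.00, interval -0.02 to 0.02). At 30 h it was 506 CPM, higher by 0.18 (0.16 to 0.20). At that time it exceeded control by 0.17 in gCaps, by 0.22 in artery ECs (0.15 to 0.29) and by 0.37 in aCaps (0.30 to 0.43). In vein ECs the 30 h ratio was 0.03 (-0.15 to 0.20).

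Efna1 was lower in both melanoma libraries, with 121, 103 and 96.4 CPM over all ECs, ratios of -0.23 (-0.27 to -0.19) and -0.32 (-0.37 to -0.28). Its gCap ratios were -0.26 and -0.37. In artery ECs the 6 h library was lower by 0.55 (interval -0.76 to -0.35) and the 30 h library differed by -0.13 (-0.30 to 0.04). In aCaps the intervals of both ratios included 0.

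Among the receptors, Ephb4 was 135, 145 and 131 CPM over all ECs, with ratios of 0.10 (0.07 to 0.14) and -0.04 (-0.08 to 0.00), and the latter turned to 0.03 with TMM scaling. Epha4 was 88.6, 85.4 and 98.2 CPM, with ratios of -0.05 (-0.10 to -0.01) and 0.15 (0.10 to 0.19), and in aCaps it was 0.47 higher at 30 h (0.31 to 0.64). Epha2 was 28.0, 28.7 and 35.1 CPM. In gCaps Epha2 was higher by 0.22 at 6 h (0.11 to 0.34) and by 0.57 at 30 h (0.46 to 0.68), just inside the fold, which it passed with TMM scaling, with stricter gates, without doublets, without barcodes carrying other cells' markers and as a mean over cells. In aCaps, where Epha2 was highest, the ratios were -0.16 and -0.13. The Epha7 ratio at 30 h was -0.92 (-1.64 to -0.24), but it was 0.04 with at least 300 genes per barcode as the limit and -0.13 without barcodes that carried markers of other cells. The gCap ratio of Efna5 at 30 h was -3.11 (-4.80 to -1.80) from 51 and 5 UMIs, a level below that of the empty droplets (3.42 and 6.07 CPM), and after free RNA subtraction it was 0.783 CPM in the control library and 0 at 30 h, from which no ratio was taken.

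**Figure D4:**
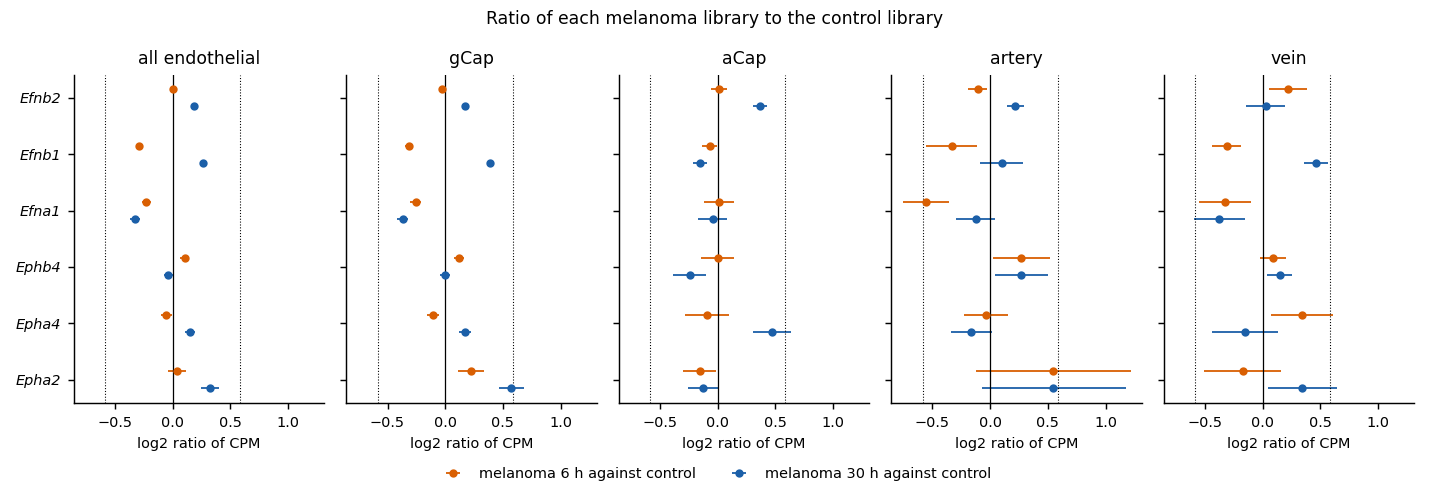
log2 ratio of CPM in the melanoma 6 h and melanoma 30 h libraries to the control library (horizontal axis) for 6 genes (vertical axis) in all ECs and 4 EC types; bars are exact 95% counting intervals, the solid line marks equality and dotted lines the 1.5-fold limits. Efnb1 lies left of 0 at 6 h and right of it at 30 h in all ECs (-0.29 and 0.26), gCaps and vein ECs, and no point lies beyond a dotted line.

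LECs were the smallest gate, and 5 genes had enough UMIs to compare there. At 6 h 1 of the 5 was past the fold, against 8.51% of genes tested in LECs, at 30 h against control 3 of 5 against 9.73%, and at 30 h against 6 h 2 of 5 against 9.81%. Efna5 was 415, 609 and 267 CPM from 253, 260 and 145 UMIs, higher by 0.55 at 6 h (0.30 to 0.81) and lower by 0.64 at 30 h (interval -0.94 to -0.34), and the 30 h library was 1.19 lower than the 6 h library (interval -1.50 to -0.89). The tenth of LECs with most Efna5 carried 43.5%, 38.1% and 53.8% of its UMIs, and these intervals do not cover differences between cells. After subtraction of free RNA, Efna5 was 478, 620 and 271 CPM. Ephb4 was 102, 122 and 173 CPM from 62, 52 and 94 UMIs, higher by 0.76 at 30 h (lower bound 0.29). Efnb2 came from 61, 40 and 86 UMIs and was higher by 0.66 at 30 h (0.17 to 1.16), a ratio that was 0.14 without doublets and 1.22 with free RNA subtracted. The Efnb1 ratio of -1.66 at 6 h rested on 27 and 6 UMIs, and it was -0.35 after subtraction of free RNA with counts rounded to whole UMIs. Free RNA, estimated from epithelial genes, made up 14.6% of the control LEC sum and 1.82% and 1.54% of the others. Control LECs held 2588 CPM of epithelial genes, against 17737 CPM in empty droplets. Their red cell genes were 929 CPM, against 56472.5 CPM in empty droplets, a far lower share. The subtracted Efna5 levels and the subtracted Efnb2 and Efnb1 ratios rest on the epithelial estimate, and which share is nearer the free RNA was not tested.

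Of the other 14 Eph and ephrin genes only Ephb1, a receptor of B ephrins, reached 5 CPM in an EC type, and the other 13 stayed below it. Ephb1 was 24.6, 53.9 and 49.6 CPM in LECs from 15, 23 and 27 UMIs, and 0.402, 3.92 and 5.28 CPM in artery ECs from 1, 9 and 17 UMIs. It was picked by its level in LECs, so its contrasts between EC types are given no test. Over all ECs 3 of the 4 other ephrins and 6 of the 10 other receptors had enough UMIs to compare. At 6 h 4 of these were past the fold upward (Efna2, Efnb3, Epha1 and Ephb1) and 2 downward (Epha3 and Ephb3), each at under 2 CPM, where 8.61% of all genes were past it in either direction, and at 30 h 3 upward (Efna4, Epha6 and Ephb1) and 1 downward (Ephb3), where 17.5% of all genes were. These shares of all genes are not matched for such low levels. Empty droplets held Epha3 too, as given below, and the part of free RNA in these ratios was not tested. The genes other than Ephb1 are named here after their values were seen.

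The genes that carry the signal onward were read as 2 lists. Of 30 forward signaling partners (adaptors, kinases and exchange factors that act behind Eph receptors) 28 could be compared over all ECs, with a median log2 ratio of -0.10 at 6 h and -0.16 at 30 h against -0.02 and -0.05 over all genes. At 6 h 0 were past the fold upward and 1 downward, against 4.56% and 4.05% of all genes, and at 30 h 1 upward and 2 downward, against 9.32% and 8.19%. The upward gene was Tiam1, a Rac exchange factor, at 6.88 CPM in the control and 21.1 CPM in the 30 h library (1.62 at 30 h, interval 1.48 to 1.75). Kalrn was 151, 97.6 and 81.0 CPM (-0.62 at 6 h and -0.89 at 30 h), and Vav2 was 7.46, 5.92 and 4.85 CPM (-0.62 at 30 h). The next largest downward ratios were Vav3 at 6 h (-0.48) and 30 h (-0.51) and, at 6 h, Vav2 (-0.33). The largest upward ratios at 6 h were Fyn (0.23), Tiam1 (0.22) and Afdn (0.16), and after Tiam1 at 30 h Rras (0.27) and Ngef (0.16, from 11 UMIs in both the control and 30 h libraries). None of the 11 reverse signaling and shedding partners was past the fold over all ECs at either time. The sheddase Adam17 was 0.30 higher and the syntenin gene Sdcbp 0.28 higher at 6 h, after Grip1 (0.44, from 23 and 30 UMIs), and Psen2 (-0.42), Ptpn13 (-0.30) and Pick1 (-0.27) had the largest downward ratios. At 30 h Ptpn13 (0.17), Adam17 (0.07) and Ncstn (0.05) were the highest and Psen2 (-0.28), Rgs3 (-0.15) and Sdcbp (-0.11) the lowest. At 30 h against 6 h 1 forward partner was past the fold upward (Tiam1, 1.40) and 0 downward, against 9.88% and 8.52% of all genes, followed by Ngef (0.56) and Sh2d3c (0.45) above and Pik3r1 (-0.41), Ptpn11 (-0.36) and Crk (-0.34) below. The reverse partners had 0 past the fold beside the same shares, with Ptpn13 (0.47), Ncstn (0.27) and Pick1 (0.19) above and Grip1 (-0.48), Sdcbp (-0.39) and Adam17 (-0.23) below.

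Between EC types the partners divided further. In artery against vein ECs 2 of 27 tested forward partners were higher (Crkl and Tiam1) and 3 lower (Vav3, Grb10 and Sipa1l1), against 11.9% and 14.3% of all genes, and in aCaps against gCaps 6 were higher and 13 lower, against 26.3% of all genes in each direction. In LECs against gCaps 7 were higher and 7 lower, against 18.9% and 20.4% of all genes. In vein ECs against gCaps 5 were higher and 6 lower, against 27.4% in either direction, and in artery ECs against gCaps 1 (Kalrn) was higher and 4 were lower, against 9.69% and 8.19%. Of the 10 reverse partners tested, 2 were higher in artery than in vein ECs (Psen2 and Rgs3) and 0 lower, and 4 were higher and 3 lower in aCaps than in gCaps. In LECs against gCaps 4 were higher and 0 lower, in artery ECs against gCaps 3 and 0, and in vein ECs against gCaps 3 and 2, beside the same shares of all genes. Adam12, among the reverse partners higher in LECs and in aCaps, was 152-fold and 11.4-fold above gCaps there. Whether it passed the abundance filter only through these EC types was not checked, so its calls add no support.

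The patterns over the 15 sums of 5 EC types and 3 libraries were also set beside those of 10512 other genes by Pearson's r of log2(CPM + 1), as a description, since the sums share libraries and EC types. Efnb2 was most like Cysltr2 (0.95), Arglu1 (0.95) and Adam23 (0.95), and Epha4 most like Jcad (0.98), Atp2a3 (0.97) and Ak3 (0.97). Ephb4 was most like Airn (0.97), Rpl32 (0.96) and Rps12 (0.95), and Epha2 most like Trib2 (0.95), Vat1 (0.95) and Ccdc12 (0.94). Efnb1 was nearest to Asb1 (0.98), Adrb1 (0.97) and Slco2a1 (0.97), Efna1 to Ivns1abp (0.92), Agap1 (0.91) and Ralgapa1 (0.89), and Efna5 to Flrt2 (0.98), Sox6 (0.98) and Wwp1 (0.97). Among the 8 genes themselves r was 0.81 for Efnb2 and Epha4, 0.72 for Efnb2 and Efna1, -0.21 for Efnb2 and Ephb4 and -0.87 for Efnb1 and Efna5. Efna5 reached at most 2.64, 0.861 and 0.710 CPM in vein ECs, gCaps and aCaps, so its r values rest mainly on LECs and artery ECs.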

How the data were processed

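Raw UMI counts of 3 libraries were taken as deposited by the authors, as unfiltered gene by barcode matrices on mm10. The submitters' notes name Cell Ranger 7.2.0 and Seurat 4.4.0, the study's methods an older Cell Ranger, the labels a version 2 kit, and whether intronic reads were counted is not given in the sources used here. Lungs had been digested with collagenase for 1 h at 37 °C before the sort. Total UMIs were 140601123, 132566934 and 124085451 in the control, 6 h and 30 h libraries, so counting error is small for all but the LEC gate and the low genes. Doublets were kept in the main values. Gate limits were set after the data were seen, and the genes and gene lists were chosen with earlier results of these data known.

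The genes named are the 8 members, other Eph and ephrin genes with at least 5 CPM in an EC type, the partners with the 3 largest ratios in each direction and the 3 genes most alike. Ratios between libraries were given an exact conditional binomial 95% interval, for genes with at least 30 UMIs over the 3 libraries. EC types were compared on 15 sums with edgeR 4.0.16 (quasi-likelihood, TMM scaling, filterByExpr, library as block, 8 residual degrees of freedom) and Benjamini-Hochberg adjustment with a threshold of 0.05, and DESeq2 1.42.0 was run as an alternative. edgeR's test was also run on simulated counts with changes in artery ECs only and no library effect. That setting differs from these data, so the run gives no error rate for the contrasts here. Thinned shares have Clopper-Pearson intervals. Gene positions were taken from GENCODE M21, which held 99.6% of the gene identifiers, and promoter sequences from RefSeq for all 8 genes. Counts came from 3' reads, so levels of different genes were not compared, apart from the order of the Efnb2 to Ephb4 ratio across EC types.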

Additional observations from a re-analysis of the deposited data

Results flagged for a closer look

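The ratios to control differed in direction between the times or between EC types, with counting intervals on opposite sides of 0, for these genes, and the differences themselves were not tested. Efnb1 was -0.29 at 6 h and 0.26 at 30 h over all ECs and -0.31 and 0.39 in gCaps and -0.31 and 0.46 in vein ECs, while in aCaps it was -0.15 at 30 h. Efnb2 was -0.0302 at 6 h and 0.17 at 30 h in gCaps and -0.11 and 0.22 in artery ECs. Efna5 in LECs was 0.55 at 6 h and -0.64 at 30 h. Ephb4 over all ECs was 0.10 at 6 h and -0.0392 at 30 h. Epha2 at 6 h was 0.22 in gCaps and -0.16 in aCaps. Epha4 was -0.0538 and 0.15 over all ECs and -0.10 and 0.17 in gCaps at 6 h and 30 h, and at 6 h it was 0.34 in vein ECs.

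Outside the EC comparisons, 29 barcodes of the 6 h library carried melanoma marker genes, and they held 4 UMIs of Efna5, or 17.8 CPM (exact Poisson 95% interval 4.85 to 45.5), an interval that holds the 7.2 CPM of the empty droplets of that library. The label of that library lists melanoma cells beside ECs. No barcode of the control or 30 h library met this rule.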

How the results depend on the processing

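Between EC types the calls of the 6 genes counted over the 5 contrasts were 23 (32.7% of all genes called over these contrasts), 20 without the library as a replicate block (19.1%) and 22 to 26 with each library left out in turn (22.7% to 29.4%). In artery ECs against gCaps they were 3 without the block (7.57%), against 5, and in LECs against gCaps 5 with no filter on low counts (22.7%), against 3. Of single calls between EC types, with those of Efna5 included, 5 were lost and 16 gained over all alternatives and 364 kept their side of the threshold, and none changed direction. These single calls were not counted for the 6 genes alone. No paired analysis was possible because each treatment group has 1 library, for the comparisons between groups.

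Between libraries the count past the fold was 1 (Efna5) in gCaps at 6 h with free RNA subtracted (log2 ratio -2.43, beside 9.70% of all genes) and as a mean over cells. In LECs at 6 h it was 0 without doublets (8.95%) and with free RNA subtracted (11.2%). Over all ECs at 30 h it was 0 with at least 300 genes (19.8%), without barcodes carrying other cells' markers (16.7%) and as a mean over cells. In gCaps at 30 h it was 2 (Efna5 and Epha2) without doublets, without such barcodes, with stricter gates, with TMM scaling (15.9% to 16.2% of all genes in these) and as a mean over cells, and 0 with free RNA subtracted, where Efna5 came to 0 CPM at 30 h and gave no ratio. At 30 h against 6 h over all ECs it was 0 with at least 300 genes (20.1%) and without such barcodes (17.8%), and 2 with TMM scaling (Efnb1 and Epha7, 18.7%) and as a mean over cells (Efna5 and Epha7). The ratio turned direction for Ephb4 at 30 h over all ECs with TMM scaling (0.0313), for Epha7 at 30 h with at least 300 genes (0.0373) and for Efnb1 at 30 h against 6 h in aCaps with at least 300 genes (0.0542) and TMM scaling (0.0022). Of the other ratios 47 moved beyond their interval and 883 did not. The cause was not tested, and the share of all genes was not computed for means over cells.

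Genes past the fold at 6 h, at 30 h and between the times numbered 1489, 3029 and 3183, and 3186, 6090 and 5968 at the lower fold tried and 610, 1327 and 1455 at 2-fold. Joint shares in gCaps were higher at greater depth, by construction. For Efnb2 and Ephb4 they were 31.3%, 34.2% and 34.5% at 4000 UMIs and 54.4%, 59.9% and 61.0% without thinning, and for Efnb2 and Epha4 23.6%, 22.5% and 25.2%, then 38.9%, 40.0% and 42.8%. Depth limits Epha7 in all EC types and Efna5 outside artery ECs and LECs.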

Other observations

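Barcodes that failed the EC gate held RNA of these genes too. The 32 barcodes of all libraries with epithelial markers held 157 CPM of Epha7 (exact Poisson 95% interval 126 to 192, from 92 UMIs), and the 116 with fibroblast markers 10.4 CPM from 10 UMIs, all of the control library (24.3 CPM there and 0 UMIs in the others). The 75 with pericyte markers and the 43 with smooth muscle markers held 0 UMIs of Epha7, where intervals reach 8.72 and 11.5 CPM. By library, the epithelial barcodes held 108, 238 and 145 CPM of Epha7 from 10, 7 and 15 barcodes. Efna5 in fibroblast barcodes was 109, 73.9 and 20.7 CPM from 45, 19 and 6 UMIs by library, and in smooth muscle barcodes 53.9 and 79.0 CPM from 7 and 9 UMIs in the control and 6 h libraries and 0 UMIs at 30 h. Epha3 was 89.8 CPM (71.8 to 111) in fibroblast barcodes and 0 UMIs in epithelial ones. Efnb2 was 66.2 CPM (44.0 to 95.7) in pericyte barcodes and 8.51 CPM in epithelial ones, and empty droplets held 295 to 337 CPM of it, and the part of free RNA in these Efnb2 values was not tested. Empty droplets held 3.42, 7.2 and 6.07 CPM of Efna5, up to 6.45 CPM of Epha3 and up to 1.52 CPM of Epha7. These barcodes are few and passed a sort for ECs.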
